A study of Bos taurus with 38 samples.

Results

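A total of 194 genes whose transcripts were abundant in cattle oocytes and also in the cumulus cells around them were examined. They were selected on their level. For each of 27607 gene identifiers the count was divided by the library total and multiplied by 1000000 (CPM), the mean was taken over 19 oocytes and over 19 cumulus samples, and identifiers were ranked by the lower of both means. The top 200 were taken, and the 6 of them that belonged to 16 identifiers set aside beforehand were dropped. The 16 are the 13 protein-coding genes of mitochondrial DNA, TMSB10 and 2 identifiers, ENSBTAG00000043567 and ENSBTAG00000043570. The ranked value was 187 CPM for PRRC2A, 190 CPM for SERBP1 and 191 CPM for HSPA4, the named genes nearest to the threshold inside it. It was 186 CPM for CALM3 and for HNRNPC and 182 CPM for SURF4, the nearest named genes outside it.

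The libraries came from single oocytes of Bos taurus and from the cumulus cells of the same complex, aspirated from antral follicles of abattoir ovaries and stained with brilliant cresyl blue (BCB) before the oocyte and its cumulus cells were separated. Oocytes that kept the dye were BCB positive (9 complexes) and those that lost it were BCB negative (10 complexes). The dye loses its color in oocytes with high activity of glucose-6-phosphate dehydrogenase, an enzyme that is active in growing oocytes and whose activity declines once growth is complete. Each library is 1 oocyte or the cumulus cells of 1 complex, each complex carries a number, and the animal of origin was not given, so complexes may share an animal and the p-values then measure only the spread between these samples. The complex numbers fall into 3 runs, 6 to 24 (3 BCB positive, 1 BCB negative), 65 to 74 (6 and 3) and 86 to 91 (6 BCB negative only), and what the runs stand for was not given.

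The oocyte draws on its cumulus cells throughout growth. Cumulus cells pass metabolites, ions and other small molecules to it through gap junctions at projections that cross the zona pellucida, and the oocyte signals back through secreted growth factors. An oocyte builds up a large store of messenger RNA for the first embryonic divisions, whereas cumulus cells are somatic cells with ongoing transcription. Making proteins, folding them, tagging them for degradation, and keeping up the cytoskeleton and energy metabolism are tasks of every cell. The sum of a cumulus library reflects many cells, and fewer cells and less RNA per cell cannot be told apart in it.

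An oocyte library held 8886070 to 29810354 counts and a cumulus library 1103200 to 10430148 counts. The cumulus median was 5853816 in BCB positive and 2252271 in BCB negative complexes, and 4 BCB negative libraries (complexes 6, 65, 66 and 68) had under 2000000 counts. The 16 identifiers set aside took 0.266 to 2.36% of the counts of an oocyte and 3.38 to 55.4% of those of a cumulus sample, with cumulus medians of 4.98% in BCB positive and 27.4% in BCB negative complexes. The 3 oocyte markers with a name in the files used (ZP2 and ZP3 of the zona pellucida, and DAZL) had a level in cumulus samples of 0.153 to 0.721% of that in oocytes. The 13 named cumulus markers, such as INHA, INHBA and FSHR, had a median level in oocytes of 2.33% of that in cumulus cells, and the highest was 7.79% for KRT8. Summed cumulus markers were highest in the oocyte of complex 72 (2586 CPM), followed by complexes 88 (597 CPM), 74 (547 CPM) and 70 (361 CPM), against 64.6 to 196 CPM in the other oocytes. In cumulus samples the summed oocyte markers ran from 0.108 to 1.82 CPM in BCB positive and from 0.661 to 66.5 CPM in BCB negative complexes.

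A symbol was known for 80 of the 194 genes and not for the other 114. Symbols came from the paper's lists of the BCB comparisons, kept to the genes with the lowest p-values, and from its lists of gene pairs co-expressed between oocytes and cumulus cells. The named genes are therefore not a neutral sample of the 194, in BCB differences or in the relation between compartments. By function the named genes held 8 chaperones, 6 genes of the secretory pathway and membrane traffic, 5 each of ubiquitin and proteasome, RNA binding and signalling adaptors, 4 each of ribosomal proteins, translation factors, cytoskeleton and glycolysis, 3 histone and chromatin genes, 2 ferritins and TOP2B, a DNA topoisomerase, with 29 others. The reads of near-identical copies cannot be fully parted, which touches UBB, HSPA1A, H3-3B, EIF3CL, TUBA1B and the ribosomal proteins. Whether strand was used in counting was not stated, and 24 of the 80 named genes overlap another gene in the RefSeq annotation, among them MYT1L and CTNNA1 with 4 others each and RPL5 and CFL1 with 2 others each.

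Because the levels chose the genes, they are given here as a description without a test. Mean CPM was higher in oocytes for 81 of the genes and higher in cumulus samples for 113, and 25 and 46 genes, respectively, were higher in that compartment in all 19 complexes. For 118 genes the means lay within 2-fold of each other, and for 30 they were over 5-fold apart. Only 17 of the genes were in the top 200 of both compartments, whereas 44 were in the top 200 of oocytes and 61 in that of cumulus cells. The genes together made up 7.1 to 8.66% of the counts of an oocyte and 8.47 to 17.1% of those of a cumulus sample. The plot of both means shows this wide scatter around equality.

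**Figure D1:**
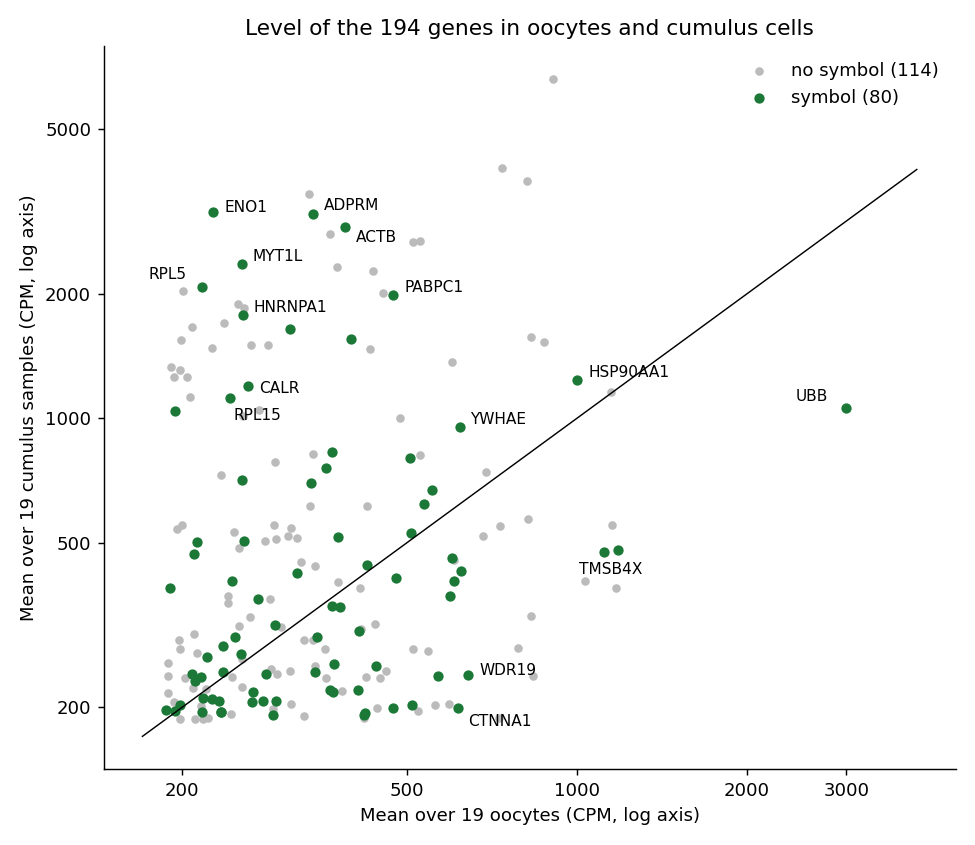
Mean level of each of the 194 genes over 19 oocytes (horizontal, CPM, log axis) against its mean over 19 cumulus samples (vertical, CPM, log axis), with 80 named genes in green and 114 without a symbol in grey, and a line where both means are equal. UBB, WDR19 and CTNNA1 sit on the oocyte side of the line, and ENO1, ADPRM, MYT1L and RPL5 far on the cumulus side.

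UBB, which encodes a chain of ubiquitin units and had the highest ranked value of the named genes, was among the named genes most shifted towards the oocyte. Its oocyte level was 3000 ± 758 CPM (SD, n = 19) and its cumulus level 1059 ± 438 CPM, with the oocyte higher in 19 of 19 complexes. Of the same group, 3 genes were close to equal between compartments: USP34, a deubiquitinase, had 236 and 243 CPM, and the proteasome subunits PSMC1 and PSMD2 had 234 and 195 CPM and 194 and 196 CPM, in oocytes and cumulus samples.

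The other named genes most shifted towards the oocyte were CTNNA1, the alpha-catenin that links cadherins to actin, and WDR19, a part of the transport machinery of cilia. CTNNA1 had 615 ± 55.7 CPM in oocytes and 199 ± 38.8 CPM in cumulus samples and was higher in the oocyte in 19 of 19 complexes. WDR19 had 642 ± 122 and 239 ± 80.1 CPM. The partner of CTNNA1 at cell junctions, CTNNB1 or beta-catenin, was close to equal, with 553 ± 70.9 CPM in oocytes and 669 ± 233 CPM in cumulus samples, where the oocyte was higher in 7 complexes.

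At the cumulus end stood ENO1, the glycolytic enzyme enolase, with 227 ± 211 CPM in oocytes and 3152 ± 1357 CPM in cumulus samples and the cumulus sample higher in every complex. The other glycolytic members followed in part. PKM, pyruvate kinase, had 194 and 1043 CPM and GPI, glucose-6-phosphate isomerase, 245 and 403 CPM in oocytes and cumulus samples, whereas PGD, of the pentose phosphate pathway, had 473 and 199 CPM and so was higher in oocytes. All 4 ribosomal protein genes were higher in cumulus samples. RPL5 had 217 ± 75.8 CPM in oocytes and 2083 ± 555 CPM in cumulus samples, RPL15 243 ± 42.5 and 1120 ± 298 CPM, and FAU, a ribosomal protein made with a ubiquitin-like part, 338 ± 76.1 and 697 ± 156 CPM. RPL5 and RPL15 were lower in the oocyte in every complex, and FAU in all but 1.

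The translation factors did not share 1 pattern. PABPC1, which binds the poly(A) tail of messenger RNA, had 473 ± 134 CPM in oocytes and 1985 ± 612 CPM in cumulus samples, whereas EIF4H (272 and 365 CPM), EIF5A (236 and 281 CPM) and EIF3CL (267 and 218 CPM) were close to equal. In the cytoskeleton group ACTB, beta-actin, stood at 389 ± 69.7 and 2897 ± 724 CPM, and TMSB4X, thymosin beta 4, which binds free actin monomers, stood the other way at 1118 ± 272 and 475 ± 255 CPM. TUBA1B, an alpha-tubulin, had 600 and 460 CPM and CFL1, cofilin, which severs actin filaments, 319 and 422 CPM. The ferritin chains also parted, since the light chain FTL was nearly equal (424 ± 84.7 and 442 ± 109 CPM) and the heavy chain FTH1 was higher in cumulus samples in every complex (255 ± 51.7 and 708 ± 191 CPM).

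Several genes stood within their own spread at the same level in both compartments. YBX1, a protein that packages messenger RNA, had 508 ± 73.8 CPM in oocytes and 527 ± 126 CPM in cumulus samples, and the oocyte was higher in 10 of 19 complexes. KTN1, a receptor for kinesin motors, had 369 ± 72.1 and 352 ± 126 CPM, with the oocyte higher in 10 complexes. YWHAQ, an adaptor of the 14-3-3 family, had 254 ± 50.3 and 269 ± 101 CPM, while its relative YWHAE had 620 ± 78.9 and 951 ± 220 CPM and was higher in the oocyte in 1 complex. CLTA, a clathrin light chain of coated vesicles, and KDELR2, which returns proteins to the endoplasmic reticulum, had 292 and 317 CPM and 216 and 237 CPM. The chromatin genes H3-3B (506 and 801 CPM), HMGB1 (257 and 506 CPM) and H1-4 (221 and 265 CPM) were all higher in cumulus samples by mean, and CNBP, a nucleic acid-binding protein (478 and 411 CPM), and TOP2B (372 and 255 CPM) were higher in oocytes.

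In CPM over library totals, the genes varied less between oocytes than between cumulus samples. The median coefficient of variation over 19 libraries was 16.9% in oocytes and 30.8% in cumulus samples. Over all genes kept (CPM above 2 in at least 9 of 19 libraries) it was 22.9% for 12753 genes and 39.2% for 12313 genes. Genes whose mean was at least as high as the lowest ranked value of the 194 stood at 15.9% (1316 genes) and 33.8% (744 genes). All 194 genes passed this filter in both compartments, and the lowest count in any library was 655 in oocytes and 38 in cumulus samples. The totals behind these values include the set-aside identifiers, so a library with a large share of them has lower CPM for all other genes. That share reached 55.4% among cumulus samples but only 2.36% among oocytes. Cumulus libraries were also shallower, with 1103200 counts in the smallest. How much of the wider cumulus spread comes from scaling or depth was not tested.

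The steadiest named genes in oocytes were ARF1, a small GTPase of the Golgi (coefficient of variation 5.28%, 315 to 387 CPM), HSPA4, a chaperone of the HSP110 family (6.88%, 258 to 320 CPM), and EIF5A, an elongation factor (7.01%, 206 to 256 CPM). In cumulus samples CTNNA1 (19.5%, 114 to 262 CPM) and FAU (22.4%, 434 to 994 CPM) were among the steadiest. The named genes that varied most in oocytes were ENO1 (92.7%), ADPRM (55%) and H1-4 (52.5%). In cumulus samples the 3 named genes that varied most were all inducible by heat or other protein stress: HSPA1A (155%), an HSP70, HSPH1 (133%), which helps HSP70 exchange nucleotide, and DNAJB1 (114%), an HSP40 that feeds clients to HSP70. The same 3 had 30.7%, 13.3% and 9.9% in oocytes. With medians in place of means ENO1, H1-4, HSPA1A and HSPH1 would not be members, so their membership and their spread are not independent.

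The spread of ENO1 in oocytes came from few libraries. On the scale of CPM with TMM-scaled library sizes (edgeR's trimmed mean of M-values, used in all that follows), the oocytes of BCB positive complexes had 136, 199 and 1033 CPM as lowest, median and highest values and those of BCB negative complexes 112, 151 and 279 CPM. The highest values belonged to the oocytes of complexes 72 (1033 CPM) and 74 (367 CPM), then 88 (279 CPM), which are the oocytes with the highest summed cumulus markers. Over 19 oocytes r of log2 CPM of ENO1 with log2 of the summed cumulus markers was 0.890 and rho 0.598. Without complexes 72 and 88 r was 0.673, and it was 0.902 in BCB positive (n = 9) and 0.801 in BCB negative oocytes (n = 10). No p is given for ENO1, since oocytes high in these markers helped to select it and its r is in part tied to that. Permutation p was adjusted over the 12753 genes kept in oocytes. An adjusted p under 0.05 for r was reached by 3 of the 194 genes (1.55%), a count that includes ENO1, and by 1.89% of all genes. With means over complexes whose oocyte had at most 300 CPM of these markers, ENO1, HSPA4 and PRRC2A would not be members.

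Whether the BCB classes differ was asked next, within each compartment, with edgeR's quasi-likelihood test over all genes kept, at a false discovery rate (FDR) under 0.01. The rule that chose the genes pooled both classes, but a gene could enter through a high level in 1 class. With means over BCB positive complexes only, 17 of the 194 genes would not be members, among them H1-4, HSPH1 and DNAJB1, and with BCB negative complexes only 21, among them ENO1, PGD and SEC61A1. The BCB differences of these genes are in part tied to their selection, so their fold changes are given without a p, and the counts over the 194 genes include them. In oocytes 0 of the 194 genes were called, as were 0% of the 12753 genes tested, and the lowest adjusted p was 0.843. DESeq2 also called 0 of the 194, and 1 of the 12753 genes tested (0.00784%). At an unadjusted p under 0.05 there were 19 genes (9.79%), 10 higher and 9 lower in BCB positive oocytes, where 5.58% of all genes tested passed. The median log2 fold change of the 194 genes (BCB positive relative to BCB negative) was 0.01, and their median standard error was 0.11.

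The fold changes in oocytes ran from that of H1-4, a linker histone, to that of ENO1, both among the genes whose membership rests on 1 class (log2 fold change 0.86, SE 0.33). Without complex 72 the log2 fold change of ENO1 was 0.32 (SE 0.18), and without the 4 complexes whose oocyte had over 300 CPM of cumulus markers 0.22 (SE 0.13). H1-4 had 70.5, 145 and 256 CPM in BCB positive and 76.3, 280 and 485 CPM in BCB negative oocytes (lowest, median, highest). The groups overlapped, and the log2 fold change was -0.88 (SE 0.27). The BCB groups overlapped in oocytes for all 194 genes, and 0% of the 12753 genes tested had groups that did not.

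In cumulus cells 4 of the 194 genes were called, all lower in BCB positive samples, where 0.56% of the 12313 genes tested were called and 0.52% were called lower in BCB positive. They were the named genes MYT1L and ADPRM and ENSBTAG00000051364 and ENSBTAG00000054661, which have no symbol here and are given by identifier because they were called. At an unadjusted p under 0.05 there were 50 genes (25.8%), 41 lower and 9 higher in BCB positive samples. Of all genes tested 18.7% passed, and 10.3% of all genes tested passed and were lower in BCB positive. The median log2 fold change was -0.14 over the 194 genes and -0.01 over all genes tested. Scaling to library totals alone, without TMM, moved the median of all genes tested from -0.01 to 0.46 on the log2 scale. Then 17 of the 194 genes were called higher and 3 lower in BCB positive samples, in place of 0 and 4. These 20 genes were 10.3% of the 194, where 13.8% of all genes tested were called under the same scaling.

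MYT1L encodes a zinc finger transcription factor best known from neurons. Its cumulus level was 467, 1016 and 1470 CPM (lowest, median, highest) in BCB positive and 718, 5040 and 10195 CPM in BCB negative complexes. The groups overlapped only because complexes 89 and 88 had 718 and 1072 CPM, and the other BCB negative samples lay above every BCB positive one. The log2 fold change was -2.18 (SE 0.41, edgeR adjusted p 0.00734). In oocytes MYT1L had 170, 238 and 728 CPM in BCB positive and 133, 197 and 455 CPM in BCB negative samples, with a log2 fold change of 0.37 (SE 0.26, edgeR adjusted p 0.904).

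ADPRM, an enzyme that splits ADP-ribose and CDP-alcohols, followed the same course. It had 712, 1385 and 2222 CPM in BCB positive and 866, 6732 and 12534 CPM in BCB negative cumulus samples, a log2 fold change of -1.99 (SE 0.37, edgeR adjusted p 0.00734). BCB negative complexes 88 and 89 again lay inside the BCB positive range. In oocytes it had 161, 289 and 1053 CPM in BCB positive and 231, 283 and 473 CPM in BCB negative samples (log2 fold change 0.32, SE 0.26, edgeR adjusted p 0.911).

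ENSBTAG00000051364 had 3304, 3886 and 5214 CPM in BCB positive and 4701, 10011 and 19040 CPM in BCB negative cumulus samples (log2 fold change -1.23, SE 0.19, edgeR adjusted p 0.00282), and only complex 89 among BCB negative samples lay within the BCB positive range. ENSBTAG00000054661 had 487, 829 and 1197 CPM in BCB positive and 1367, 1588 and 2549 CPM in BCB negative cumulus samples, a log2 fold change of -1.10 (SE 0.16, edgeR adjusted p 0.00159). It was the 1 gene of the 194 whose groups did not overlap, as was the case for 6 of the 12313 genes tested (0.0487%). Within the run of complexes 65 to 74 all 4 genes were called again with edgeR, with log2 fold changes of -2.93 for MYT1L, -2.68 for ADPRM, -1.25 for ENSBTAG00000051364 and -1.26 for ENSBTAG00000054661 (adjusted p 0.000677, 0.000677, 0.00808 and 0.00638). Of all 12313 genes, 84 (0.682%) were called there. The 3 BCB negative samples of that run, complexes 65, 66 and 68, had 1103200 to 1650795 counts and a share of 27.3 to 55.4% for the set-aside identifiers, and its 6 BCB positive samples had 4386946 to 10430148 counts and 3.38 to 9.8%. Class, depth and that share cannot be told apart within this run.

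**Figure D2:**
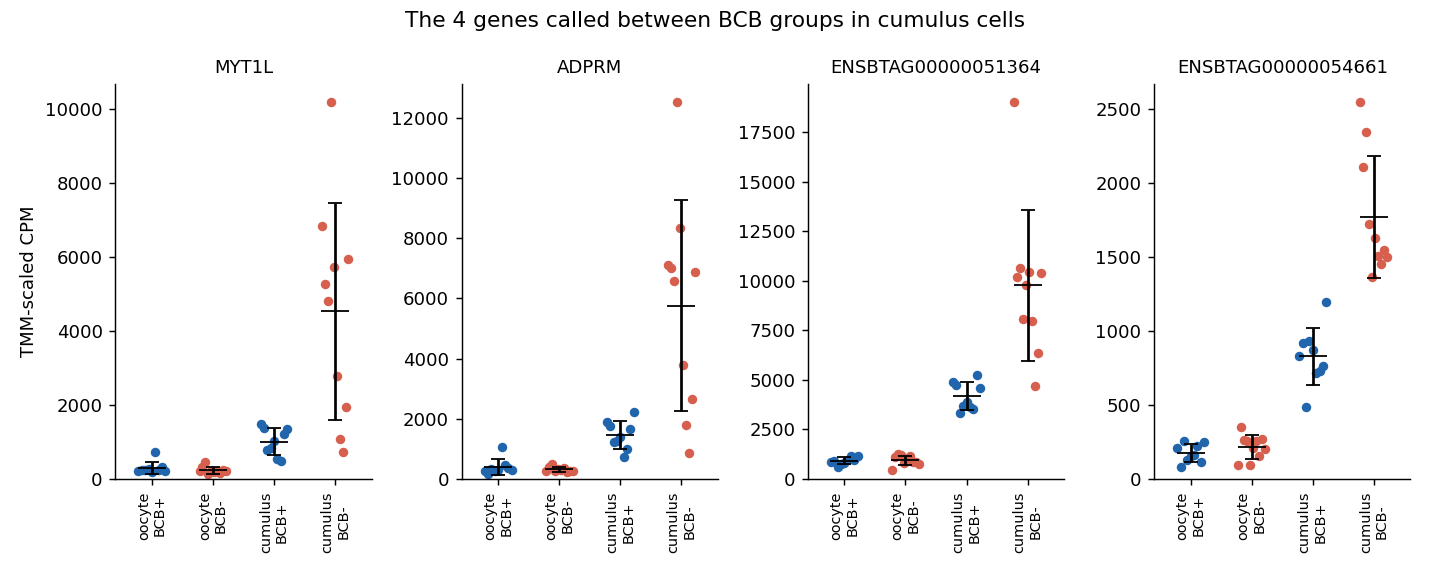
TMM-scaled CPM of the 4 genes called between BCB classes in cumulus cells, 1 point per library, with the mean (horizontal line) and SD (bar) of 9 BCB positive (blue) and 10 BCB negative (red) samples in each compartment. In cumulus cells most BCB negative points lie above the BCB positive ones for every gene, and in oocytes the classes overlap for every gene.

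None of the 4 genes stayed called when the log10 of the library total was added to the model, where the log2 fold changes were -0.49 for MYT1L, -0.41 for ADPRM, -0.73 for ENSBTAG00000051364 and -0.88 for ENSBTAG00000054661. None was called either when the 4 complexes with low cumulus libraries were left out, where they were -1.63 for MYT1L, -1.50 for ADPRM, -1.01 for ENSBTAG00000051364 and -0.88 for ENSBTAG00000054661. Of all 12313 genes, 2 were called in each of these fits. Library total differed between the classes as given above, and its part in the result cannot be told apart from that of class. Summed cumulus markers in the cumulus samples also differed, with medians of 13781 CPM in BCB positive and 7624 CPM in BCB negative complexes, and their part was not tested. Without complex 72 the named genes MYT1L (-2.09) and ADPRM (-1.93) were no longer called with edgeR and the 2 unnamed genes still were. Without the 4 complexes whose oocyte had over 300 CPM of cumulus markers (70, 72, 74 and 88), 0 of the 4 genes stayed called, with log2 fold changes of -2.26 for MYT1L, -2.13 for ADPRM, -1.23 for ENSBTAG00000051364 and -1.22 for ENSBTAG00000054661 (edgeR adjusted p 0.0357, 0.0357, 0.0357 and 0.022). With library totals alone the log2 fold changes were -1.52, -1.33, -0.70 and -0.59, and ENSBTAG00000054661 was no longer called (edgeR adjusted p 0.0201), while the other 3 were.

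The cumulus level of MYT1L and ADPRM moved with the share of counts that the 16 set-aside identifiers took in the same library. Over 19 complexes, Pearson's r of log2 CPM with the log10 of that share was 0.963 for MYT1L (Spearman's rho 0.939) and 0.955 for ADPRM (rho 0.918). The permutation p was 1e-05, the smallest that 100000 permutations can give, for each of these 4 values, and the p adjusted over the 12297 genes kept other than the 16 was 0.00152 for r and 0.00216 for rho. Without complexes 68 and 91, which lay farthest from the median share, r was 0.949 and 0.940.

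The relation also held for MYT1L inside both classes and inside the 2 runs with at least 6 complexes, with r of 0.764 in BCB positive (n = 9, exact permutation p 0.0208), 0.968 in BCB negative (n = 10, permutation p 3e-05), 0.972 in complexes 65 to 74 (n = 9, exact permutation p 7.2e-05) and 0.979 in complexes 86 to 91 (n = 6, exact permutation p 0.00139). For ADPRM r was 0.637 in BCB positive (n = 9, exact permutation p 0.0657), 0.980 in BCB negative (n = 10, permutation p 2e-05), 0.960 in complexes 65 to 74 (n = 9, exact permutation p 0.000433) and 0.981 in complexes 86 to 91 (n = 6, exact permutation p 0.00417). Level and share come from the same library, and MYT1L and ADPRM were the only 2 of the 194 genes (1.03%) with r above 0.9, against 36 of the 12297 genes (0.293%). What moves these levels with the share was not tested.

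ENSBTAG00000051364 (r 0.851, rho 0.867) and ENSBTAG00000054661 (r 0.715, rho 0.714) were also among the 10 genes of the 194 (5.15%) with an adjusted permutation p under 0.05 for r (0.00246 and 0.0269), a threshold passed by 512 of the 12297 genes (4.16%). For the latter the relation did not hold inside the classes, where r was -0.09 in BCB positive (n = 9, exact permutation p 0.817) and 0.348 in BCB negative samples (n = 10, permutation p 0.33). The relation was positive for 8 of the 10 genes and for 261 of the 512. The 2 negative ones were SEC61A1, the channel through which proteins enter the endoplasmic reticulum (r -0.705, rho -0.702), and FKBP4, a cochaperone of HSP90 (r -0.678, rho -0.674, adjusted permutation p 0.0434 and 0.0658). No p is given for SEC61A1, which means over BCB negative complexes alone would not have chosen, since the share is lower in BCB positive samples and its r is in part tied to its selection. Without complexes 68 and 91 r was -0.659 and -0.658. In BCB positive and BCB negative samples it was 0.03 and -0.622 for SEC61A1 and -0.466 and -0.447 for FKBP4.

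In oocytes an adjusted p under 0.05 for r was reached by 0 of the 194 genes, as by 0% of the 12737 genes kept other than the 16. ADPRM had r 0.810 (rho 0.670, adjusted permutation p 0.421 and 0.203) and MYT1L r 0.615 (rho 0.363, adjusted permutation p 0.467 and 0.538) over 19 oocytes. Without complexes 71 and 6 these were 0.659 and 0.259, so that of MYT1L rests on those oocytes. The oocyte of complex 71 had the largest share of the set-aside identifiers (2.36%) and the highest MYT1L (728 CPM) and ADPRM (1053 CPM).

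**Figure D3:**
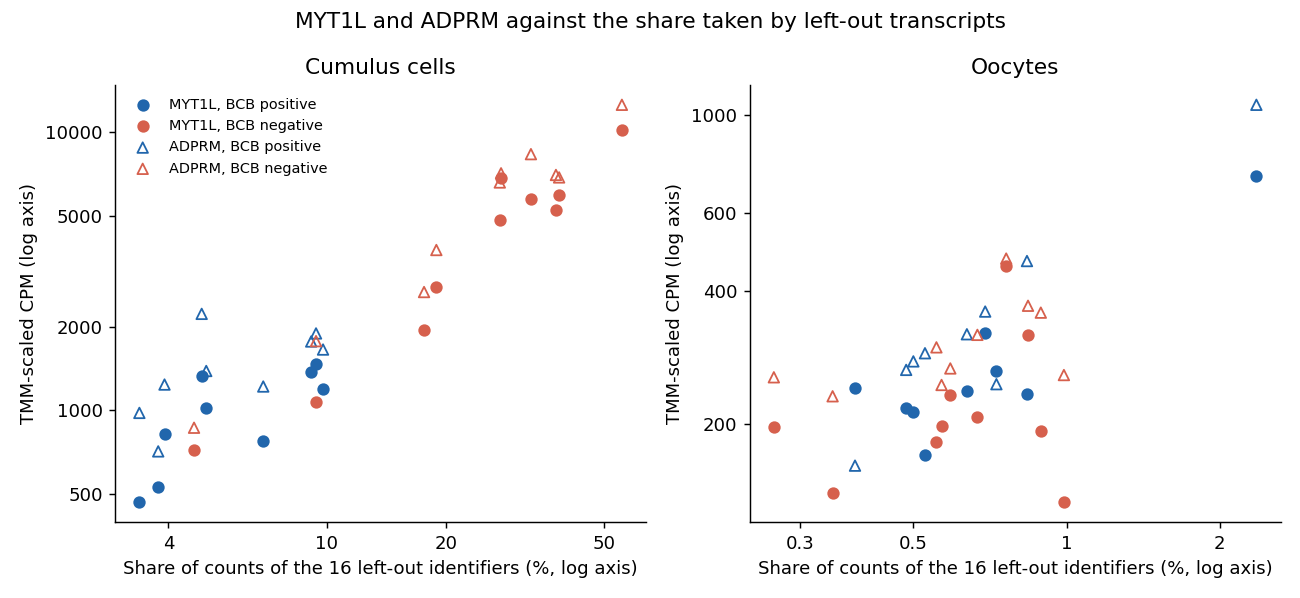
TMM-scaled CPM of MYT1L (filled circles) and ADPRM (open triangles) against the share of library counts taken by the 16 set-aside identifiers (%), in 19 cumulus samples (left) and 19 oocytes (right), with log axes and BCB positive in blue and BCB negative in red. Both genes are higher where the share is larger in cumulus samples (r 0.963 and 0.955), and in oocytes 1 library at 2.36% stands apart from the rest.

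Whether the BCB difference itself differed between compartments was tested as the interaction of compartment and class over all 38 libraries and 10281 genes kept in both. Called were 3 of the 194 genes, where 0.525% of all genes tested were called and 0.506% in the direction of a lower BCB difference in cumulus cells. They were MYT1L (difference of log2 fold changes -2.59, SE 0.48, edgeR adjusted p 0.00248), ADPRM (-2.34, SE 0.46, adjusted p 0.00314) and ENSBTAG00000051364 (-1.23, SE 0.26, adjusted p 0.0068). With the complex as a block, which pairs each oocyte with its own cumulus cells, 0 were called, where 2 of all 10281 genes (0.0195%) were, with -2.21 for MYT1L, -1.85 for ADPRM and -1.15 for ENSBTAG00000051364 (edgeR adjusted p 0.075, 0.132 and 0.103). Within complexes 65 to 74 the values were -3.07, -3.03 and -1.02 (edgeR adjusted p 0.0194, 0.013 and 0.1), and 0 were called, where 60 of all genes (0.584%) were. Scaling to library totals alone moved the median of all genes from -0.03 to 0.49, and then 7 genes were called higher and 2 lower. These 9 genes were 4.64% of the 194, where 6.48% of all genes tested were called.

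Some named genes came close to the threshold in cumulus cells without passing it. RPL5, of the large ribosomal subunit, had 963, 1476 and 2462 CPM in BCB positive and 1950, 2582 and 3329 CPM in BCB negative samples (log2 fold change -0.73, SE 0.16, edgeR adjusted p 0.0135). TMSB4X had 218, 314 and 419 CPM in BCB positive and 338, 495 and 1319 CPM in BCB negative samples (-1.02, SE 0.23, edgeR adjusted p 0.0171). In both genes the classes overlapped. Within complexes 65 to 74 the log2 fold change of RPL5 was -0.66 and that of TMSB4X -0.29 (edgeR adjusted p 0.191 and 0.523). TMSB4X had 1319 CPM in complex 6, 468 to 1083 CPM in complexes 86 to 91 and at most 496 CPM in the BCB negative complexes 65 to 74.

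By function, 0 of 4 ribosomal protein genes were called in cumulus cells. The log2 fold changes were -0.73, -0.38 and -0.07 for RPL5, FAU and RPL15, and with library totals alone those of FAU and RPL15 were above 0 (0.11 and 0.40). For the 4 glycolysis and pentose phosphate genes the log2 fold changes ran from 0.15 to 0.47 and 0 were called, with PGD at 0.47. The 6 secretory genes ran from -0.29 to 0.42, where KDELR2 stood at 0.34 (edgeR adjusted p 0.181) and SEC61A1 at 0.36. H3-3B, a variant histone laid down outside replication, had 363, 908 and 1543 CPM in BCB positive and 261, 646 and 967 CPM in BCB negative samples (log2 fold change 0.60, SE 0.23, edgeR adjusted p 0.168). None of these groups, nor the translation, ubiquitin, RNA-binding, cytoskeleton, ferritin or signalling genes, held a gene that was called.

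Chaperones help proteins fold or refold, and cells make more of the inducible ones when proteins are damaged. The 8 chaperone genes had log2 fold changes from -2.26 to 0.39 in cumulus cells and 0 were called. HSPA1A had 67.1, 105 and 499 CPM in BCB positive and 58, 638 and 4059 CPM in BCB negative samples (log2 fold change -2.26, SE 0.74, edgeR adjusted p 0.101). HSPH1 had 55.3, 98.7 and 191 CPM in BCB positive and 83.3, 199 and 1335 CPM in BCB negative samples (-1.70, SE 0.46). DNAJB1 had 56.3, 138 and 271 CPM in BCB positive and 58.7, 230 and 1477 CPM in BCB negative samples (-1.60, SE 0.52). No p is given for HSPH1 and DNAJB1, which means over BCB positive complexes alone would not have chosen. The BCB negative samples of each of the 3 genes ran from the level of BCB positive samples to far above it.

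For HSPA1A the high samples were those of 1 run. In the 6 BCB negative complexes 86 to 91 HSPA1A had 611, 1087 and 4059 CPM, against 58, 66.8 and 134 CPM in the 3 BCB negative and 67.1, 229 and 499 CPM in the 6 BCB positive complexes of the run 65 to 74. HSPH1 had 128, 320 and 1335 CPM in complexes 86 to 91, against 83.3 to 126 CPM in the BCB negative and 72.4 to 191 CPM in the BCB positive complexes 65 to 74. DNAJB1 had 179, 562 and 1477 CPM against 58.7 to 210 and 75.8 to 271 CPM. For HSPA1A the run 86 to 91 did not overlap any other cumulus sample, whereas for HSPH1 and DNAJB1 its lowest values lay inside the range of the other runs. The share of all genes whose run 86 to 91 stands apart was not computed. HSPA1A would not be a member with medians in place of means, so its place rests in part on these high samples.

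Because the run 86 to 91 holds BCB negative complexes only, run and class cannot be told apart for it. Within complexes 65 to 74 the sign turned, with log2 fold changes of 1.65 for HSPA1A (SE 0.70, edgeR adjusted p 0.309), 0.16 for HSPH1 and 0.28 for DNAJB1. With the run as a covariate over all 19 samples they were 0.97 (edgeR adjusted p 0.411), -0.22 and -0.11. HSP90AA1, the stress-inducible HSP90, had 784, 974 and 1239 CPM in BCB positive and 806, 1267 and 2763 CPM in BCB negative samples (-0.65, SE 0.22, edgeR adjusted p 0.107), with 0.16 (adjusted p 0.747) within complexes 65 to 74. Its 2 highest BCB negative samples were complex 90 (2763 CPM) and complex 6 (2721 CPM), which is of another run. In oocytes HSPA1A had 513 to 784 CPM in complexes 86 to 91, 290 to 388 CPM in BCB negative and 267 to 833 CPM in BCB positive complexes 65 to 74, so that the last run lay above the BCB negative and inside the range of the BCB positive oocytes of the other.

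**Figure D4:**
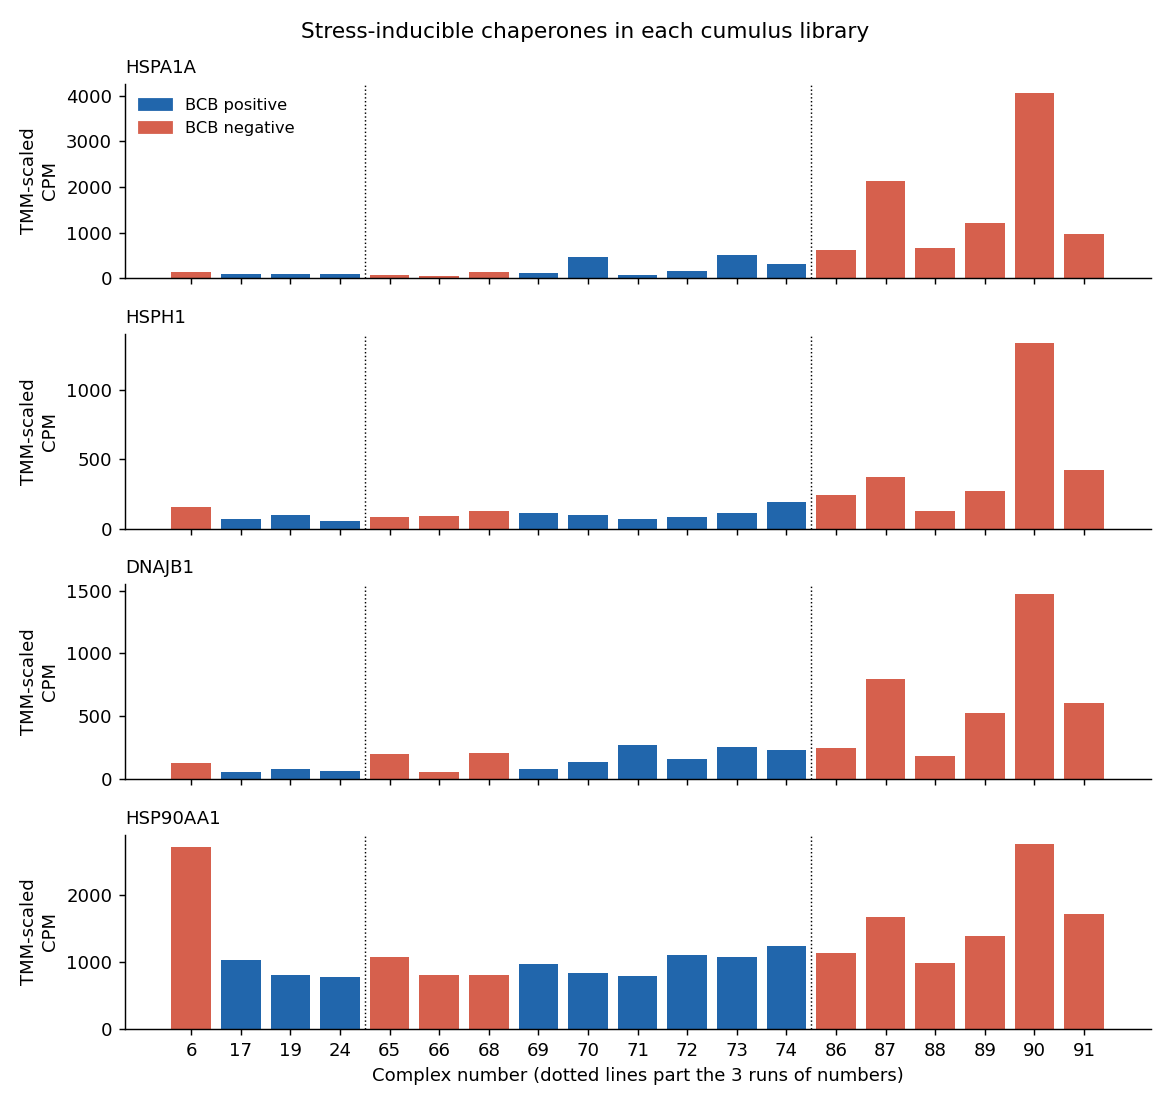
TMM-scaled CPM of 4 stress-inducible chaperone genes in each of 19 cumulus samples, by complex number, with BCB positive in blue and BCB negative in red and dotted lines between the 3 runs of complex numbers. HSPA1A is at 611 to 4059 CPM in complexes 86 to 91 and at most 499 CPM elsewhere, and complex 90 is the highest for all 4 genes.

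Since the cumulus samples fall into separate sets by run in HSPA1A, no relation between chaperones is given over all 19. Within complexes 65 to 74 (n = 9) r of log2 CPM was 0.522 between HSPA1A and HSPH1, 0.347 between HSPA1A and DNAJB1 and 0.111 between HSPH1 and DNAJB1, with exact permutation p of 0.145, 0.359 and 0.775. These were 3 of 28 pairs of chaperones computed.

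Whether the level of a gene in the oocyte followed its level in the cumulus cells of the same complex was asked over 19 complexes, with Pearson's r of log2 CPM and a permutation test adjusted over all 10281 genes kept in both compartments. The rule used means over complexes only. An adjusted p under 0.05 was reached by 0 of the 194 genes, as by 0% of all genes. At an unadjusted p under 0.05 there were 25 genes (12.9%), 18 of them with r above 0, where 8.6% of all genes passed. The median r was 0.0779 over the 194 genes and 0.0767 over all genes, and r was above 0 for 117 of them (60.3%) and for 61.5% of all genes.

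**Figure D5:**
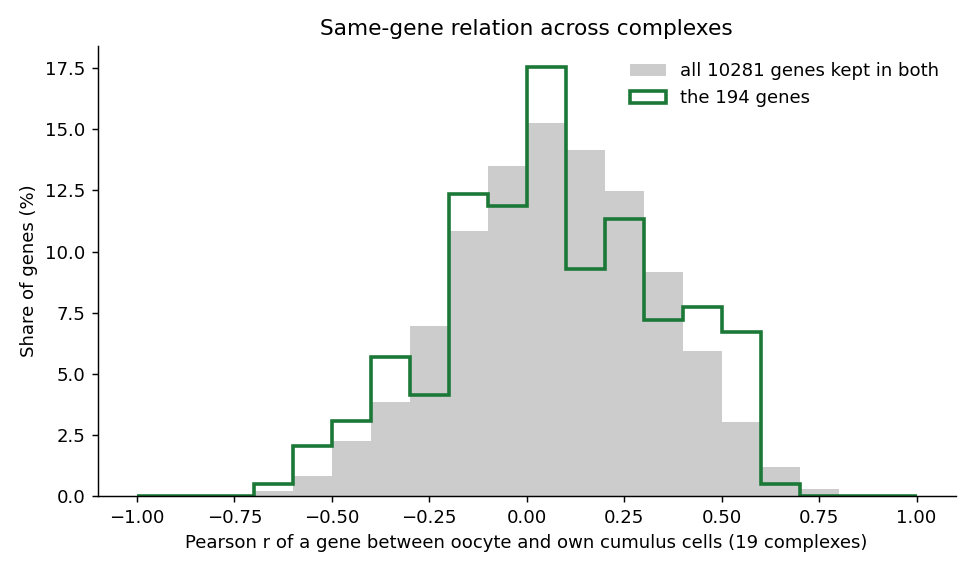
Share of genes (%) by Pearson's r between the level in the oocyte and in its own cumulus cells over 19 complexes, for the 194 genes (green outline) and all 10281 genes kept in both compartments (grey). Both lie around a median near 0.08, and the 194 genes run from -0.614 to 0.662.

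The named genes with the highest r were HSPA1A (r 0.572, rho 0.540, adjusted permutation p 0.404 and 0.578), KTN1 (r 0.566, rho 0.561, adjusted permutation p 0.404 and 0.546) and CFL1 (r 0.522, rho 0.254, adjusted permutation p 0.49 and 0.871). Without the 2 complexes farthest from the median oocyte level r was 0.616, 0.402 and 0.415. KTN1 stood at 0.775 in BCB positive (n = 9, exact permutation p 0.0079) and 0.826 in BCB negative complexes (n = 10, permutation p 0.00137), and at 0.293 within complexes 65 to 74 (n = 9, exact permutation p 0.44). For HSPA1A, whose cumulus values fall apart by run, r was 0.602 within complexes 65 to 74 (n = 9, exact permutation p 0.09), and for CFL1 it turned to -0.496 (n = 9, exact permutation p 0.175). The p-values within a class or run are unadjusted. KTN1, HSPA1A and CFL1 were named for their r over the same complexes, so these p-values are no separate support.

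Among the named genes the lowest r was that of EIF3CL, a gene for a subunit of an initiation factor (r -0.564, rho -0.530, adjusted permutation p 0.402 and 0.587), then DNAJB1 (r -0.482, rho -0.481, adjusted permutation p 0.527 and 0.617) and RPL15 (r -0.454, rho -0.314, adjusted permutation p 0.58 and 0.804). Within complexes 65 to 74 these were 0.0278, -0.244 and -0.404 (n = 9, exact permutation p 0.944, 0.539 and 0.281). HSPA1A and its HSP40 partner DNAJB1 thus had r of opposite sign between oocyte and own cumulus cells, and neither passed the adjustment.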

How the data were processed

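RNA of 19 single oocytes and the cumulus cells of each was sequenced. The authors trimmed and aligned the reads to ARS-UCD1.2 with HISAT2 2.1.0 (versions from the submitters' processing notes), removed duplicates and counted reads per Ensembl gene with featureCounts 1.6.0. The deposited values are raw counts. Levels were computed as CPM. The 194 genes and the gene lists were chosen with earlier results of these data known. edgeR 4.0.16 (R 4.3.3; TMM, robust dispersions, quasi-likelihood test, FDR under 0.01) was run on genes with CPM above 2 in at least 9 of 19 libraries, and DESeq2 1.42.0 as an alternative. The scripts were tested on simulated data. Relations across complexes used log2 CPM (prior count 2) and 100000 permutations, or all permutations under 10 complexes, in Python 3.11.15 with scipy 1.17.1. Dropping complexes with cumulus markers in the oocyte, and the relation of level with those markers, were chosen after seeing the data.

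Oocyte and cumulus libraries of 1 complex are paired by the complex number in the labels. Their deviations from the group means correlated at -0.0145 to 0.212 (median 0.0694), above 0.1 in 6 of 19 pairs. No libraries of 1 compartment were duplicates (highest r of log2 CPM 0.981). Depth limits precision most in the cumulus libraries under 2000000 counts. Named genes are the 10 highest by rank, those called, the ends of the ratio, of the coefficient of variation and of r between compartments, those nearest the threshold, and the first by rank of each function list. Others were named after their values were seen, as members of a function list or for a relation. RefSeq (ARS-UCD2.0) was used for overlaps between genes only. Identifiers were taken as deposited, and no sequence is shown because no table used here ties one to them. Some results of named genes are not reported here.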

Additional observations from a re-analysis of the deposited data

Results flagged for a closer look

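The 41 named genes were checked in each of the 4 groups of libraries for a sample that lies apart from the rest of its group, by the gap to its nearest neighbour relative to the range. This gave 14 such samples in 164 checks, where chance alone gives about 1 in 20. The count cannot be read against that share, because ENO1, ADPRM, HSPA1A, HSPH1 and DNAJB1, which gave 7 of the 14, were named for a high coefficient of variation, which a sample lying apart raises. All values are TMM-scaled CPM.

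The cumulus sample of complex 90 was apart from the other BCB negative samples in UBB (2041 CPM, next 1300), HSPA1A (4059, next 2128), DNAJB1 (1477, next 798) and HSPH1 (1335, next 424). Among BCB positive cumulus samples complex 17 was highest for YWHAE (1300, next 1032), complex 74 for HSPH1 (191, next 113) and complex 72 for CTNNA1 (221, next 192).

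Among BCB positive oocytes complex 71 was apart in ADPRM (1053, next 467) and MYT1L (728, next 321), complex 72 in ENO1 (1033, next 367) and complex 17 in KTN1 (595, next 445). Among BCB negative oocytes complex 88 was highest for ENO1 (279, next 185) and complex 65 for ARF1 (392, next 357), and complex 68 was lowest for PABPC1 (126, next 392).

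The BCB difference was tested to differ between cumulus cells and oocytes for MYT1L (-2.59 on the log2 scale), ADPRM (-2.34) and ENSBTAG00000051364 (-1.23) with edgeR, and not with the complex as a block.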

How the results depend on the processing

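In oocytes 0 of the 194 genes were called under each alternative run, and of all genes tested only 1 was called, with DESeq2 (0.00784%). In cumulus cells the count of 4 (2.06% of the 194, where 0.56% of all genes were called) became 8 at an FDR of 0.05 (4.12 and 2.92%), 13 with DESeq2 (6.7 and 2.96%), 20 with library totals alone (10.3 and 13.8%), 2 with no filter on low counts (1.03 and 0.64%), 0 with the log10 library total as a covariate or without the low cumulus libraries (2 genes called in all in each), and 2 and 0 without complexes whose oocyte had over 1000 or over 300 CPM of cumulus markers (7 and 1 in all). The other alternatives gave 3 or 4. The interaction count of 3 (1.55%, all genes 0.525%) became 5 at an FDR of 0.05 (2.58 and 1.2%), 5 with DESeq2 (2.58 and 1.18%), 9 with library totals alone (4.64 and 6.48%), 0 within complexes 65 to 74 (60 in all), and 1 without the low cumulus libraries and under either limit on cumulus markers (7, 17 and 11 in all). With the replicate block, which pairs the libraries of a complex, it was 0 (2 in all). The remaining alternatives gave 3 (1.55%), where 0.331 to 1.17% of all genes were called. The block enters no other comparison, since the others lie within 1 compartment. For the relation between oocyte and own cumulus level 0 genes passed under each alternative. The median r was 0.338 (0.307 over all genes) with the inverse hyperbolic sine of counts over the TMM factor in place of log2 CPM, which leaves out the library total and changes the transform at once.

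Of the 194 genes 173 to 188 remained when medians, TMM sizes, other totals, 1 BCB class or oocytes with at most 300 CPM of cumulus markers were used, all 194 remained in the top 400, and 96 in the top 100, which holds fewer by construction. The causes of the other shifts were not tested.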
